A study of Mus musculus with 5 samples.

Results

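Interleukin-1 (IL-1) signaling and the inflammasome were described here through 10 genes in single cells of the injured mouse kidney: the ligands Il1a and Il1b, the antagonist Il1rn, the receptors Il1r1, Il1r2 and Il1rap, and the inflammasome genes Nlrp3, Casp1, Casp4 and Gsdmd. The members were chosen by gene symbol, and all 10 were found among the 32285 genes of the count matrix. The kidneys came from male C57BL/6J mice aged 6 to 8 weeks. The left renal pedicle was clamped for 35 min to give unilateral ischemia-reperfusion injury (UIR), the right kidney was left in place, and tissue was taken on day 1, 3, 14 or 28, with sham-operated mice as controls. Each of the 5 conditions is 1 labelled sample. The study's methods give 3 mice for a kidney sample but also more matrices than the 5 libraries seen here, so how many mice stand behind a library is not certain. The matrix holds 5 libraries, told apart by a barcode suffix of 1 to 5. No label ties that suffix to sham or to a day, so the libraries are given by number only, nothing was compared between conditions, and all cells count as 1 pooled sample with no test and no p-value.

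In this pathway, pro-IL-1β is made when danger signals reach a cell through pattern recognition receptors, and it stays inactive until a protease cuts it. NLRP3 is the sensor that gathers caspase-1 into the inflammasome, caspase-1 cuts pro-IL-1β and gasdermin D, and gasdermin D opens pores through which the cytokine leaves the cell. Caspase-11, the product of Casp4, cuts gasdermin D after it senses intracellular lipopolysaccharide. IL-1α is active without cleavage. Both cytokines signal through IL-1R1 with its partner IL-1RAcP (Il1rap), whereas IL-1R2 binds the ligand without signaling and the IL-1 receptor antagonist (Il1rn) blocks IL-1R1. After renal ischemia, infiltrating neutrophils and macrophages are known sources of these cytokines. RNA counts show none of the cleavage steps.

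A total of 57487 cells were kept, between 8255 and 18907 per library, with a median of 4626 unique molecular identifiers (UMIs) per cell and library medians between 4038 and 5336. Cells were placed in classes by gates on marker genes that hold none of the 10 members. The gates named 31679 cells, left 24879 without a class (median 2566 UMIs) and set 929 aside because a second class scored too close. The leukocyte gates held 4941 cells, and 323 of them, rich in proximal tubule transcripts, were kept apart. The neutrophil gate held 1450 cells at a median of 1302.5 UMIs, the macrophage gate 1039 at 4081, and the classical monocyte gate 453 at 3905. The basophil gate held 1 cell and was left out where classes are ranked. Library 5 gave only 2 gated neutrophils and 9 classical monocytes, so those gates rest on libraries 1 to 4. The 350 barcodes that occur in 2 or more libraries were kept. The labels name goblet cells as the cell type, yet 6 goblet cell markers (Muc2, Spdef, Clca1, Fcgbp, Zg16 and Tff3) had between 0 and 43 UMIs over all kept cells, whereas 22805 cells passed the proximal tubule gate. Levels are CPM, the UMI count of a gene scaled to the UMIs summed over a class, with exact 95% Poisson intervals that cover counting error only.

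The ligand genes Il1a and Il1b lie on the minus strand of chromosome 2 (GRCm38), at chr2:129299610-129309972 and chr2:129364570-129371139, and Il1rn lies on the plus strand of the same chromosome at chr2:24336853-24351494. Il1r2 (chr1:40074079-40125231) and Il1r1 (chr1:40225080-40317257) open a receptor cluster on chromosome 1 that continues with Il1rl2, Il1rl1, Il18r1 and Il18rap. Casp1 (chr9:5298517-5307265) and Casp4 (chr9:5308828-5336783) are neighbours on chromosome 9. The RefSeq promoter windows (GRCm38.p6, 250 bases before to 50 after the start site) held 9 of the 10 members, Gsdmd not among them. Of these, 3 windows are shown because the genes are a neighbouring ligand pair with different cell patterns and a caspase found in leukocytes, endothelium and injured epithelium. Capitals mark a TATA box (TATAAA) and an AP-1 motif (TGANTCA) in Il1a, a TATA box in Il1b and an overlapping pair of NF-κB motifs in Casp4.
Il1a, minus strand, chr2:129309923-129310222: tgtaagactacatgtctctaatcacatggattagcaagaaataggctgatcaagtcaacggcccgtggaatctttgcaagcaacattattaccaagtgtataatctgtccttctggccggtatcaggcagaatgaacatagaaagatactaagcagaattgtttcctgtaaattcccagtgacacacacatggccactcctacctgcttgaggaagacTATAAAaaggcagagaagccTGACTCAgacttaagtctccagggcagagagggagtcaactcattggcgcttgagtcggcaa
Il1b, minus strand, chr2:129371090-129371389: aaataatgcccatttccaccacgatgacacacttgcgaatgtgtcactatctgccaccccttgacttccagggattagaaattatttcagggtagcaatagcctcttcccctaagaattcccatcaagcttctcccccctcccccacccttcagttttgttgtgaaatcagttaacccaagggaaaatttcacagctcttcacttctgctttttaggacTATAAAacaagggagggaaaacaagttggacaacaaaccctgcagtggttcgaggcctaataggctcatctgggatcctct
Casp4, plus strand, chr9:5308599-5308898: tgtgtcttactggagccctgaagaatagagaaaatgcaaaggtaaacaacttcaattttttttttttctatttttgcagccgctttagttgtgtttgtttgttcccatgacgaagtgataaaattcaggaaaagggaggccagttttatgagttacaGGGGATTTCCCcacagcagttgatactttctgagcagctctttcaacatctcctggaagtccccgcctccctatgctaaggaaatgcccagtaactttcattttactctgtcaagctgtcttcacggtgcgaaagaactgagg
The TATA box began 32 bases before the start site in Il1a and 31 before it in Il1b. On both strands, TATAAA was found in 13.6% of the 32851 windows of this length in the table, TGANTCA in 7.81% and the NF-κB motif in 4.51%. The NF-κB motif also matched the window of Nlrp3 at chr11:59541319-59541618 and 1 of the 2 windows of Il1r1. The C/EBP letters TTGCNNAA (10.8% of windows) matched the other Il1r1 window, TGANTCA and TATAAA each matched 1 of the 3 windows of Il1rn, and the PU.1 letters GAGGAAGT (3.20%) matched none of the members' windows. These are matches of letters in a short window and nothing was measured at them.

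Il1b, the main secreted IL-1 ligand, was highest in neutrophils and was high in every mononuclear phagocyte class. Its level was 8034 CPM (95% interval 7919 to 8150) in neutrophils, 3354 CPM in 42 conventional dendritic cells, 2572 CPM in macrophages, 2564 CPM in 70 mature dendritic cells, 1964 CPM in 36 non-classical monocytes and 1910 CPM in classical monocytes. Macrophages and mature dendritic cells did not differ beyond counting error, nor did the 2 monocyte classes. This order is one of CPM, a share of the UMIs of a class. Per cell and not scaled to depth, pooled neutrophils (18663 Il1b UMIs in 1450 cells) held fewer than macrophages (14598 in 1039). Among libraries 1 to 4 this held in library 1 only (744 in 63 against 6821 in 286). Neutrophils held more per cell in library 2 (9967 in 581 against 4984 in 333) and library 3 (5746 in 601 against 1532 in 221). The same held in library 4 (2201 in 203 against 700 in 149). Pooled neutrophils also held fewer than conventional (1007 in 42) and mature dendritic cells (973 in 70). In library 2, however, mature dendritic cells (480 in 35) held fewer than neutrophils. In the lymphoid and tubular classes Il1b lay at or below 51.5 CPM, with 10.4 CPM in T cells and 4.76 CPM in the proximal tubule, against 4.61 to 120 CPM in the ambient RNA of the 5 libraries. A UMI of Il1b was found in 93.0% of neutrophils, 70.9% of classical monocytes and 65.4% of macrophages, against 2.13% of T cells, which should lack it (median 1782 UMIs). Cells with at least 1000 UMIs were also thinned to 1000, and shallower cells were left out of that step. This kept 1122 of 1450 neutrophils, 450 of 453 classical monocytes, 950 of 1039 macrophages and 1017 of 1081 T cells. The shares in these cells were 90.7%, 57.8%, 56.0% and 1.47% in that order.

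**Figure D1:**
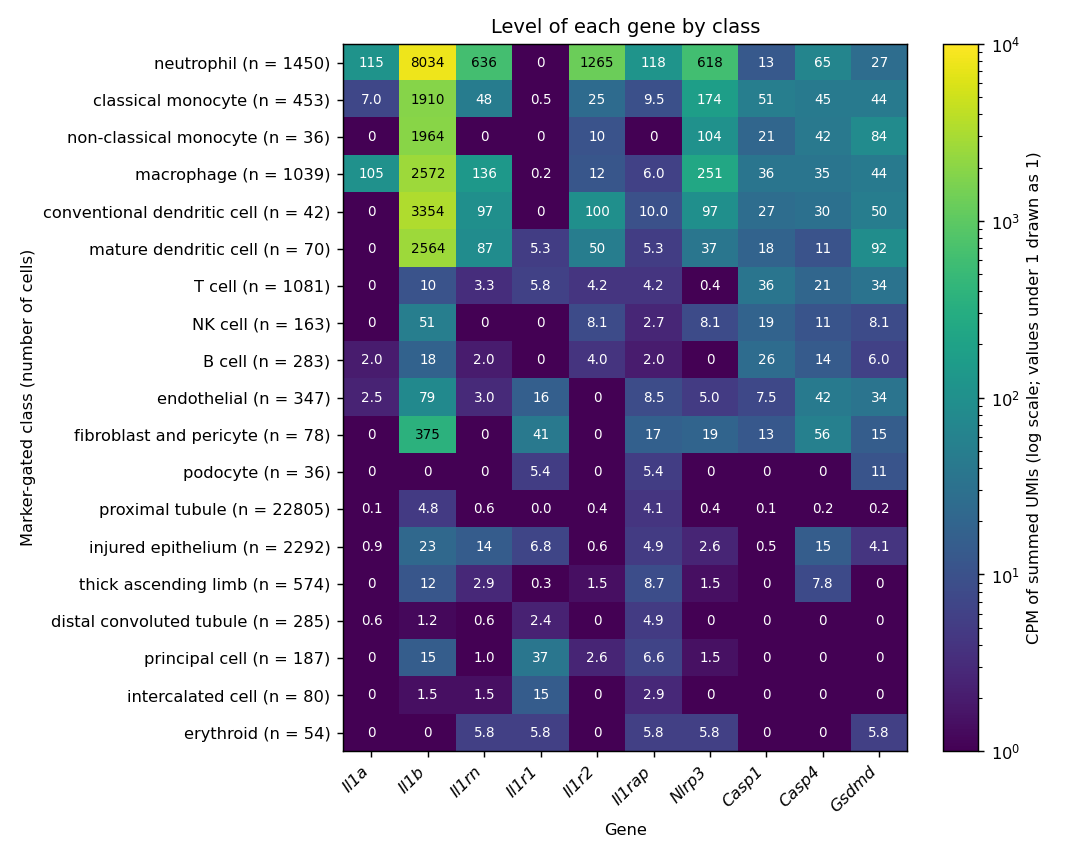
Level of each of the 10 genes (columns) in each gated class (rows, with the number of cells), as CPM of summed UMIs on a log color scale with the value printed in each cell and values under 1 drawn as 1. Pooled over libraries, neutrophils carry the highest level of Il1b, Il1rn, Il1r2, Il1rap and Nlrp3 and have no UMI of Il1r1. Within counting error they share the highest pooled level of Il1a with macrophages and of Casp4 with fibroblasts and pericytes. In libraries 1 and 2 classical monocytes had a higher Casp4 level than neutrophils, which in library 1 rests on 6 UMIs against 2.

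The spread of Il1b within a class also differed. At 1000 UMIs per cell the median neutrophil carried 7 Il1b UMIs and the 90th percentile 21, whereas the median macrophage carried 1 and the 90th percentile 11. The top 10% of cells held 30.2% of the Il1b UMIs in neutrophils, 42.5% in classical monocytes and 46.6% in macrophages. These values pool the libraries, and part of the spread lay between them: at 1000 UMIs a UMI of Il1b was found in 74.8%, 64.3%, 39.5%, 28.3% and 65.9% of macrophages in libraries 1 to 5, and in 100%, 93.0%, 87.7% and 92.5% of neutrophils in libraries 1 to 4. The 100% of library 1 rests on 23 of its 63 gated neutrophils.

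Between libraries, Il1b moved by different amounts in the 2 main classes. In neutrophils it was 11989, 12019, 4862 and 8873 CPM in libraries 1 to 4. In macrophages it was 4890, 2389, 1458, 661 and 6564 CPM in libraries 1 to 5. The neutrophil level was above the macrophage level in each of libraries 1 to 4, while across libraries the macrophages of library 1 (4890 CPM) and the neutrophils of library 3 (4862 CPM) came to nearly the same value. Classical monocytes were narrower, at 1786 to 3081 CPM over libraries 1 to 4. The order of macrophages and classical monocytes was not the same in all libraries: the log2 ratio was 0.67 in library 1, 0.02 in library 2, -0.29 in library 3 and -1.69 in library 4.

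Il1a, the ligand that needs no cleavage, was high in fewer classes than its neighbour Il1b. It stood at 115 CPM in neutrophils (267 UMIs) and 105 CPM in macrophages (598 UMIs), which did not differ beyond counting error. Classical monocytes had 6.99 CPM (14 UMIs), and the conventional dendritic cell, mature dendritic cell and non-classical monocyte gates had 0 UMIs, although all 3 gates were rich in Il1b. The levels that 3 UMIs would make in these small classes are 9.99, 7.91 and 31.3 CPM in that order. Macrophages exceeded classical monocytes by 3.91 on the log2 scale (interval 3.16 to 4.79), and the ratio was positive in each of the 3 libraries with a count in both (4.76, 1.77 and 3.09). By library, macrophage Il1a was 95.4, 188, 26.6, 41.6 and 0 CPM, and neutrophil Il1a was 113, 199, 33.0 and 226 CPM in libraries 1 to 4. Library 5 macrophages therefore had the highest Il1b of all libraries and no Il1a UMI in 50 cells. These 50 cells hold too few UMIs to tell that 0 from the 26.6 CPM of library 3.

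**Figure D2:**
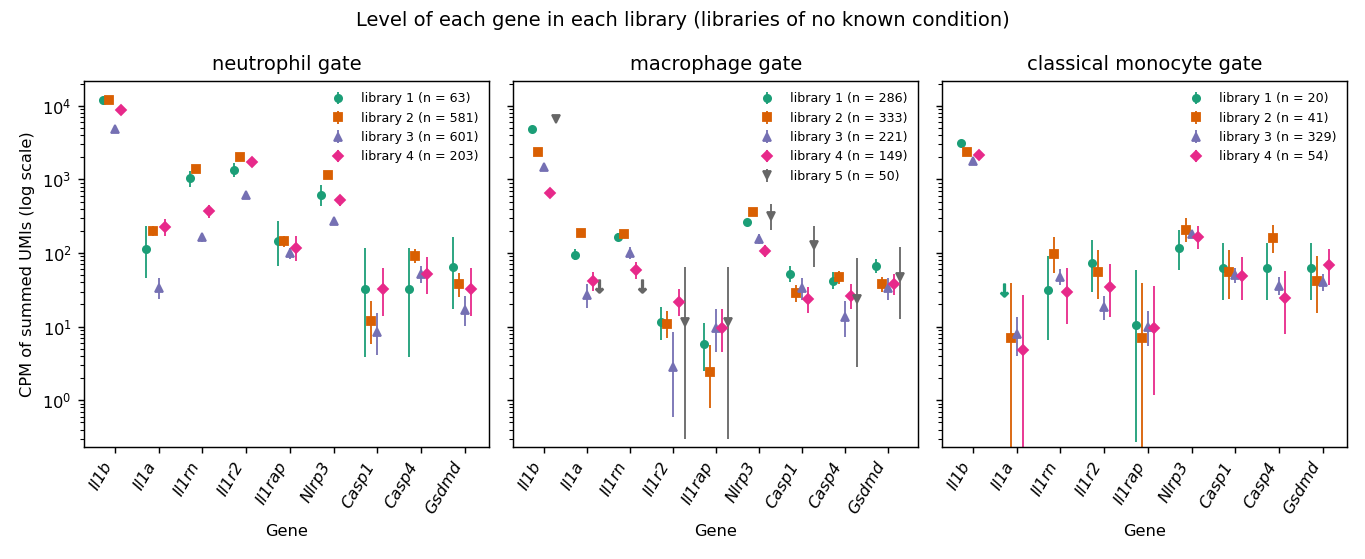
CPM on a log scale (vertical axis) of 9 genes in the neutrophil, macrophage and classical monocyte gates, 1 point per library with at least 20 cells of the gate and its exact 95% Poisson interval. Arrows stand at the level that 3 UMIs would make where a library had none. Macrophage Il1b spans 661 to 6564 CPM, and neutrophil Il1rn spans 162 to 1363 CPM.

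Il1rn, which encodes the receptor antagonist, was highest in neutrophils at 636 CPM (604 to 669), followed by macrophages at 136 CPM, conventional dendritic cells at 96.6 CPM, mature dendritic cells at 87.0 CPM and classical monocytes at 47.9 CPM. The conventional dendritic cell value rests on 29 UMIs in 3 of 42 cells, all from library 2. In libraries 1 to 4 neutrophil Il1rn was 1031, 1363, 162 and 367 CPM, and macrophage Il1rn was 164, 180, 99.9 and 58.5 CPM. Neutrophils of library 3 were thus within counting error of the macrophages of libraries 1 and 2, but in each of libraries 1 to 4 neutrophils were above the macrophages of the same library. A UMI was seen in 36.0% of neutrophils and 7.68% of macrophages at 1000 UMIs, against 0.393% of T cells.

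The antagonist was also set against its ligand, as Il1rn UMIs per 100 Il1b UMIs, each summed over the cells of a gate and not taken cell by cell. Pooled, this was 7.91 in neutrophils (7.501 to 8.35), 5.28 in macrophages (4.91 to 5.68) and 2.51 in classical monocytes (2.03 to 3.07). The order of neutrophils and macrophages depended on the library. Neutrophils gave 8.60 and 11.3 in libraries 1 and 2, against 3.36 and 7.52 in macrophages, whereas libraries 3 and 4 gave 3.34 and 4.13 in neutrophils against 6.85 and 8.86 in macrophages. Without library 2 the pooled log2 odds of neutrophils over macrophages went from 0.58 to -0.046. Library 5 macrophages had 0 Il1rn UMIs against 561 of Il1b, which allows up to 0.660 per 100.

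Injured epithelium, gated on injury markers of the tubule, had the highest Il1rn level outside the myeloid gates. The injury markers summed to 38235 CPM in this gate, of which Spp1 gave 32386 CPM. They also summed to 36373 CPM in the thick ascending limb and 31646 CPM in intercalated cells, so the sum barely sets this class apart from those. Il1rn in injured epithelium was then taken by library. The gate held 319 Il1rn UMIs at 14.5 CPM, and the level was 12.9, 13.3, 15.4 and 16.5 CPM in libraries 1 to 4. Ambient Il1rn was 0.618, 24.7, 4.09 and 1.62 CPM in those libraries, so the epithelial level was above ambient in all of them but library 2. Il1b in the same cells went the other way, at 38.0, 41.3, 14.5 and 0.358 CPM, below the ambient level of each library (62.4, 120, 43.3 and 23.9 CPM). In library 4 the epithelium had 46 UMIs of Il1rn and 1 of Il1b.

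Il1r2, the decoy receptor, set neutrophils apart from every other class more than any other receptor gene did. Neutrophils had 1265 CPM (1219 to 1311), conventional dendritic cells 99.9 CPM, mature dendritic cells 50.1 CPM, classical monocytes 24.96 CPM and macrophages 11.6 CPM, and each step down this order was larger than counting error. Ambient Il1r2 was 1.24, 25.1, 3.37, 14.5 and 1.91 CPM in libraries 1 to 5. Classical monocytes were above it in libraries 1 to 4 (73.9, 55.6, 18.3 and 34.0 CPM), with intervals that reached it in libraries 2 and 4, while macrophages were at 11.5, 11.0, 2.85, 21.7 and 11.7 CPM in libraries 1 to 5, below it in libraries 2 and 3. The neutrophil gate held 75.8% of all Il1r2 UMIs of the kept cells. Its level was 1354, 2042, 617 and 1738 CPM in neutrophils of libraries 1 to 4, and the highest macrophage level in any library was 21.7 CPM, so the classes were far apart in every library. Among neutrophils at 1000 UMIs, Il1r2 was found in 63.0% of the 1018 cells with an Il1b UMI and in 22.1% of the 104 cells without. The same held within library 2 (74.3% and 28.1%) and library 3 (49.2% and 17.7%). For Il1rn the pooled shares were 37.2% and 24.0%, but library 2 gave 59.3% and 62.5% and library 3 gave 18.7% and 4.84%, and of these libraries only library 3 gave intervals that did not overlap.

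Il1r1, the signaling receptor, had the opposite distribution. No UMI was found in 1450 neutrophils, where 3 UMIs would make 1.29 CPM, and macrophages and classical monocytes had 1 UMI each. It was highest in fibroblasts and pericytes at 40.7 CPM (24.5 to 63.6, 78 cells) and in principal cells of the collecting duct at 36.8 CPM (28.8 to 46.3, 187 cells), which did not differ beyond counting error. Endothelial cells had 16.4 CPM and intercalated cells 14.7 CPM. In principal cells it was 52.1, 73.7, 26.9, 36.0 and 34.0 CPM in libraries 1 to 5, present in all, against 0.309 to 12.3 CPM in ambient RNA. T cells had 5.84 CPM from 14 UMIs. In injured epithelium Il1r1 was 19.8, 8.95, 2.05, 2.87 and 4.44 CPM in libraries 1 to 5, which is below the ambient level of libraries 3 and 4 (2.33 and 12.3 CPM). Because that class was large, it held 32.5% of all Il1r1 UMIs, and endothelium, fibroblasts and pericytes together held 11.4%.

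**Figure D3:**
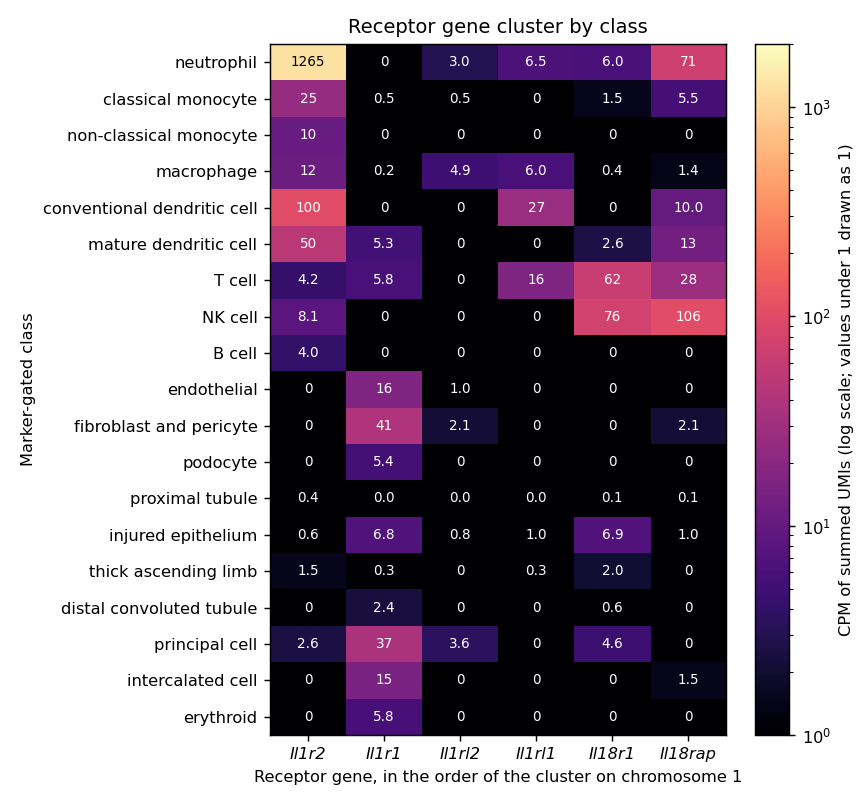
CPM of summed UMIs (log color scale, values printed, under 1 drawn as 1) of the 6 receptor genes of the chromosome 1 cluster, in their order along the chromosome (columns), by gated class (rows). Il1r2 is highest in neutrophils at 1265 CPM, its neighbour Il1r1 in fibroblasts and pericytes at 40.7 CPM, and Il18r1 and Il18rap in NK cells at 75.8 and 106 CPM.

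Along the receptor cluster each neighbour had its own pattern. Il1rl1, the IL-33 receptor, was highest in conventional dendritic cells at 26.6 CPM (8 UMIs) and T cells at 16.3 CPM. Il18r1, the ligand-binding IL-18 receptor chain, was at 75.8 CPM in NK cells, 62.2 CPM in T cells and 6.03 CPM in neutrophils. Il18rap, its accessory chain, was at 106 CPM in NK cells and also at 70.6 CPM in neutrophils, against 2.44 CPM over all monocytes and macrophages.

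Il1rap, the accessory chain shared by IL-1R1, was at 118 CPM in neutrophils (105 to 133) and next at 17.1 CPM in fibroblasts and pericytes. Over libraries 1 to 4 the neutrophil level kept within 98.995 and 145 CPM, the narrowest range of the members that were high in neutrophils. Neutrophils thus carried Il1rap and Il1r2 with no detected Il1r1. The proximal tubule held 40.9% of all Il1rap UMIs at a pooled level of 4.14 CPM, which is inside the ambient range of 0 to 5.30 CPM over the libraries. By library the tubule was at 2.64 to 7.41 CPM. Every tubule value was thus above the ambient level of library 1 (0 CPM, up to 1.14). The lowest, 2.64 CPM, was above the 1.91 CPM of ambient RNA in library 5 but inside its interval (0.986 to 3.33). The highest, 7.41 CPM, was above the highest ambient level of 5.30 CPM (4.10 to 6.74, library 3).

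Nlrp3, the inflammasome sensor, was highest in neutrophils by CPM, as Il1b was, but lower in both dendritic cell classes than in macrophages and classical monocytes. Its level was 618 CPM in neutrophils, 251 CPM in macrophages, 174 CPM in classical monocytes, 104 CPM in non-classical monocytes, 96.6 CPM in conventional and 36.9 CPM in mature dendritic cells, and 0.417 CPM in T cells. Over the 16 classes with at least 50 cells, Pearson's r of log2(CPM + 10) between Nlrp3 and Il1b was 0.93, the highest of the 45 pairs of members, and those of Il1r1 with the other 9 members lay between -0.37 and -0.02. These values describe 16 pooled classes that share libraries and ambient RNA, and leave out the conventional dendritic cells and non-classical monocytes. In neutrophils Nlrp3 was 612, 1146, 269 and 524 CPM in libraries 1 to 4 and in macrophages 264, 362, 156, 106 and 316 CPM in libraries 1 to 5. The neutrophil level was above the macrophage level of the same library in all 4. Per cell and not scaled to depth, macrophages held more Nlrp3 UMIs (1426 in 1039 cells) than neutrophils (1436 in 1450).

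Casp1, the protease that cuts pro-IL-1β, was not among the genes high in neutrophils. Pooled, it was at 51.4 CPM in classical monocytes (42.0 to 62.4), 36.3 CPM in T cells, 35.9 CPM in macrophages and 12.9 CPM in neutrophils (30 UMIs, 8.71 to 18.4). By library it ranged from 48.6 to 63.3 CPM in classical monocytes, from 23.6 to 129 CPM in macrophages and from 11.3 to 105 CPM in T cells, the highest values of the latter classes being from library 5 (11 and 6 UMIs). Neutrophils were at 32.2, 12.1, 8.46 and 32.3 CPM in libraries 1 to 4, from 2 to 10 UMIs each, and monocytes and macrophages together at 52.7, 30.2, 43.2 and 27.7 CPM. Neutrophils were lower beyond counting error in libraries 2 and 3, and not in 1 and 4. Pycard, the adaptor ASC that joins NLRP3 to caspase-1, had a like order, at 359 CPM in classical monocytes, 253 CPM in macrophages and 66.3 CPM in neutrophils.

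Casp4 was spread more widely than Casp1. Pooled, neutrophils were at 65.4 CPM, fibroblasts and pericytes at 55.7 CPM, classical monocytes at 44.9 CPM, endothelium at 42.3 CPM and macrophages at 35.4 CPM. This order was not kept by library. Classical monocytes were at 63.3, 160, 35.9 and 24.3 CPM in libraries 1 to 4, against 32.2, 91.6, 51.6 and 52.4 CPM in neutrophils. Endothelium ranged from 19.5 to 73.7 CPM. Injured epithelium was at 15.2 CPM pooled, but 53.0, 19.9, 2.54, 2.87 and 8.88 CPM in libraries 1 to 5, so library 1 stood apart there as it did for Il1r1. Ambient Casp4 was between 0.795 and 5.01 CPM. Gsdmd, the pore-forming effector, was at 92.2 CPM in mature dendritic cells (35 UMIs), 83.6 CPM in non-classical monocytes (8 UMIs) and 49.96 CPM in conventional dendritic cells. It was at 44.4 CPM in classical monocytes, 44.2 CPM in macrophages, 34.3 CPM in endothelium, 33.8 CPM in T cells and 27.1 CPM in neutrophils. No step between adjacent classes in this order was larger than counting error, but classes further apart differed. Pooled, the interval of mature dendritic cells (64.3 to 128 CPM) lay above those of classical monocytes, macrophages, endothelium, T cells and neutrophils (20.8 to 34.7 CPM). The pooled intervals of classical monocytes and macrophages also lay above that of neutrophils. Principal cells, which had Il1r1, had no UMI of Casp1, Casp4 or Gsdmd in 187 cells.

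Neutrophils were then set against classical monocytes, non-classical monocytes and macrophages together (1528 cells), as the log2 ratio of summed CPM with exact 95% intervals. Of the 8114 genes with at least 10 CPM in either group, and outside the marker lists, 15.4% were at least 2-fold higher in neutrophils and 16.6% at least 2-fold lower. Among the members, 9 passed that level and Il1r1 did not, with 5 higher (Il1b, Il1rn, Il1r2, Il1rap and Nlrp3) and 1 lower (Casp1). The median log2 ratio was 1.43 over these 9 and -0.07 over all genes tested. The ratio was 6.39 (6.13 to 6.67) for Il1r2, 4.12 (3.69 to 4.57) for Il1rap, 2.51 (2.39 to 2.63) for Il1rn, 1.75 (1.72 to 1.78) for Il1b and 1.43 (1.33 to 1.53) for Nlrp3. The 3 smaller values were 0.79 for Casp4, 0.55 for Il1a and -0.72 for Gsdmd, and Casp1 was at -1.62 (-2.21 to -1.08). Without library 2, Nlrp3 was at 0.85, under 2-fold, and Gsdmd at -1.15, over it. Without library 3, Gsdmd was at -0.35 (-0.85 to 0.12). Within libraries 1 to 4 Gsdmd was at -0.06, -0.02, -1.18 and -0.40, with an interval below 0 in library 3 only. Il1a was at 0.22 (-0.01 to 0.45) without library 4, but past 2-fold with cells thinned to 1000 UMIs (1.19, 0.80 to 1.57) and as a mean over cells (1.24), and as a mean over libraries Casp1 was at -0.86, under 2-fold. Within libraries 1 to 4 the ratios of Il1r2 (5.66 to 7.24), Il1rap (3.37 to 5.77), Il1rn (1.25 to 3.00), Il1b (1.33 to 3.30) and Nlrp3 (0.68 to 2.18) were positive throughout, with intervals above 0. Neutrophil marker genes summed to 79424 CPM in neutrophils and 94.6 CPM in macrophages, and macrophage markers to 128 CPM and 13290 CPM.

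**Figure D4:**
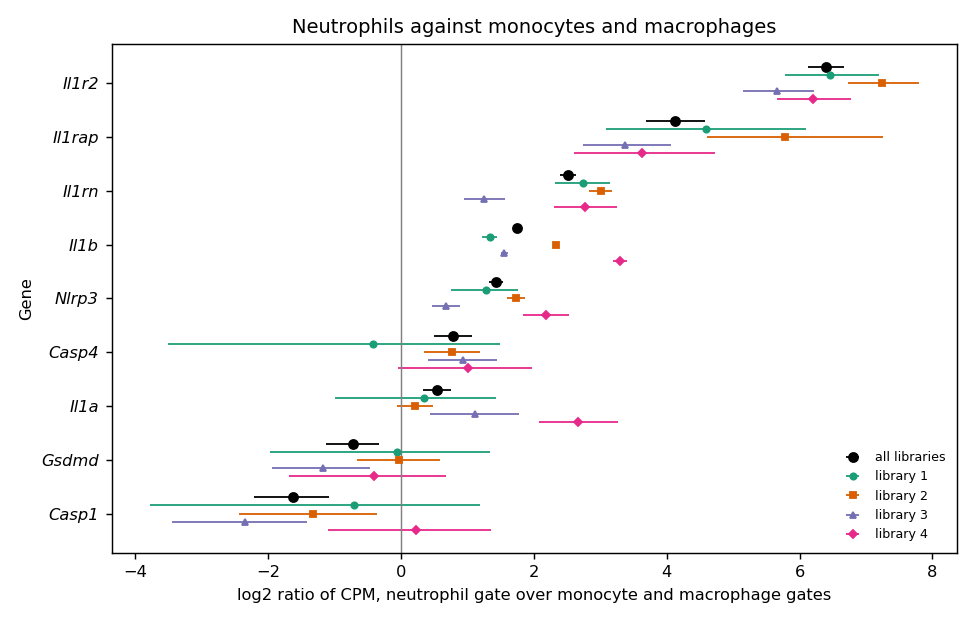
Log2 ratio of CPM in neutrophils over monocytes and macrophages (horizontal axis) for 9 genes, pooled (black) and in libraries 1 to 4, with exact 95% intervals and a line at 0. Il1r2, Il1rap, Il1rn, Il1b and Nlrp3 lie to the right of 0 in all 4 libraries, and Casp1 ranges from -2.35 to 0.22.

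The direction for Il1b, Il1rn, Il1a and Nlrp3 depended on which droplets were called as cells. Where only barcodes above the depth limit of the first calling step were used, 79 neutrophils and 894 monocytes and macrophages remained, and the ratio became -0.23 for Il1b, -0.88 for Il1rn, -2.81 for Il1a, -0.80 for Nlrp3, each with an interval below 0, and -0.44 (-1.37 to 0.36) for Casp4. Gsdmd and Casp1 became lower still, at -2.69 (-4.97 to -1.12) and -3.23 (-6.28 to -1.36). Il1r2 and Il1rap kept their direction at smaller ratios of 3.87 and 2.10.

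Macrophages were compared with classical monocytes in the same way. Of 7906 genes, 6.54% were at least 2-fold higher and 10.2% at least 2-fold lower in macrophages. Among the 8 members at that level, Il1a (3.91) and Il1rn (1.503) were higher and Il1r2 (-1.10) lower, with a median of 0.21 against -0.16 over all genes. Il1r2 was at -2.69, -2.33 and -2.68 in libraries 1 to 3, each with an interval below 0. Macrophages were below the ambient level of Il1r2 in libraries 2 and 3. The ratios of Il1b (0.43), Nlrp3 (0.53), Casp1 (-0.52), Casp4 (-0.34) and Gsdmd (-0.01) were under 2-fold when pooled, but 329 of the 453 classical monocytes came from library 3. Within libraries 1 to 4 the ratio of Casp4 was -0.58, -1.77, -1.43 and 0.12, past 2-fold in libraries 2 and 3, and that of Nlrp3 was 1.18, 0.80, -0.20 and -0.64. Il1rn was at 0.89 in library 2, and in library 4 Il1rn (1.00, -0.20 to 2.51) and Il1r2 (-0.65) had intervals that included 0. Macrophages with an Arg1 UMI (77 at 1000 UMIs) had 662 CPM of Il1b against 3871 CPM in 873 without, a log2 ratio of -2.55. Arg1 encodes arginase. Of the 77 cells, 40 came from library 3 and 24 from library 4, the libraries with the lowest macrophage Il1b. Library 3 gave -1.80 and library 4 gave -0.12 (-0.96 to 0.64), so the difference was not found in both. Neutrophils with a Siglecf UMI (85 cells) and without (1037 cells) differed by 0.39 for Il1b, by 0.20 within library 2 and 0.45 within library 4.

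Endothelium, fibroblasts and pericytes together (425 cells) were compared with the leukocyte gates (4618 cells). Of 9817 genes, 28.3% were at least 2-fold higher and 11.0% at least 2-fold lower in the former. All 10 members were at the level tested, with 1 higher (Il1r1) and 7 lower, and a median of -3.16 against 0.44 over all genes. Il1r1 was at 21.0 CPM against 1.28 CPM, a log2 ratio of 4.03 (3.24 to 4.90). It was 4.06, 3.79 and 4.49 in libraries 1 to 3 but 0.60 (-1.61 to 2.94) in library 5, where T cells were at 70.3 CPM from 24 cells. In library 5 all leukocyte gates together held only 4 Il1r1 UMIs, against 5 in endothelium, fibroblasts and pericytes. Casp4 (0.27) and Gsdmd (-0.35) were under 2-fold when pooled. Casp4 was at 1.14 (0.68 to 1.60) in library 1, -0.53 (-1.17 to 0.06) in library 2 and -0.75 (-1.79 to 0.13) in library 3, and Gsdmd was negative in these 3 but 1.28 (-0.25 to 2.98) in library 5. Il1rap, among the 7 lower at -1.29, was lower beyond counting error in libraries 2 and 3, and was at 0.14 (-1.23 to 1.35) in library 1 and 1.28 (-1.52 to 4.75) in library 5. The 375 CPM of Il1b in fibroblasts and pericytes came from 6 of 78 cells, 1 of which held 76 of the 175 UMIs, and 173 of the UMIs were from library 1. Macrophage markers summed to 426 CPM in that gate, and their part in its Il1b was not tested.

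**Figure D5:**
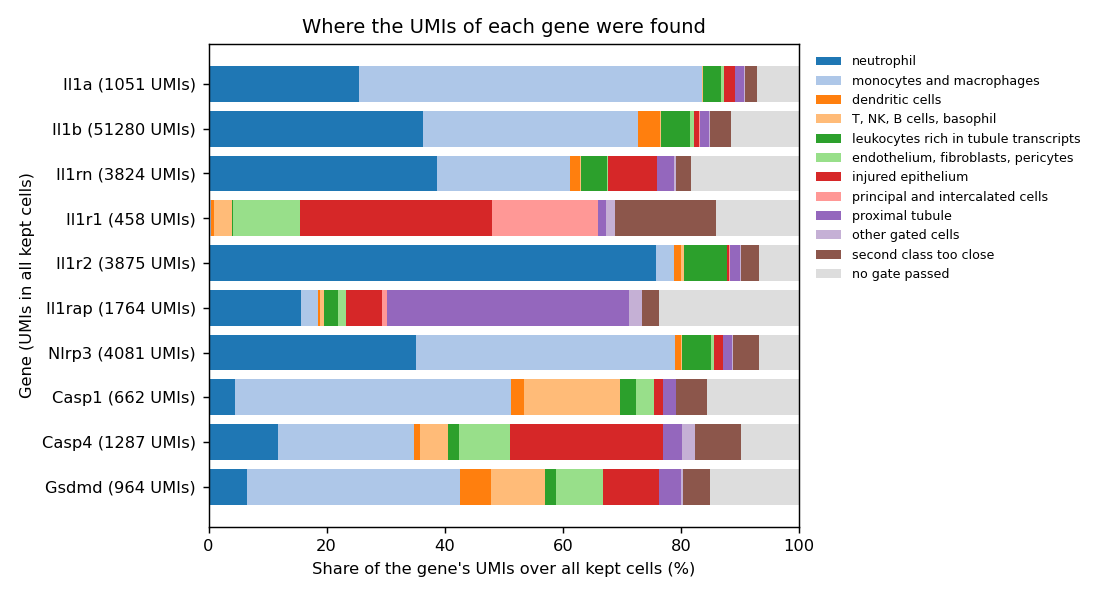
Share in percent (horizontal axis) of each gene's UMIs over all kept cells by group of classes (colors), with the total UMIs of the gene beside its name. Il1r2 is mostly in neutrophils (75.8%), Il1a mostly in monocytes and macrophages (58.2%), and Il1r1 mostly outside leukocytes.

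Across all kept cells, monocytes and macrophages held as much Il1b as neutrophils, at 36.3% against 36.4% of 51280 UMIs, from deeper cells. This rested on library 1, which gave 7121 Il1b UMIs in monocytes and macrophages and 744 in neutrophils, whereas neutrophils held more in libraries 2 to 4 (9967 against 5445, 5746 against 4329 and 2201 against 1139). Over all libraries, monocytes and macrophages held the larger share for Il1a (58.2% against 25.4%), Nlrp3 (43.7% against 35.2%), Casp1 (46.7% against 4.53%) and Gsdmd (36.1% against 6.54%), and the smaller share for Il1rn (22.7% against 38.6%). By library, neutrophils held more Nlrp3 UMIs than monocytes and macrophages in library 2 (950 against 793), and for Il1a they held 39 against 40 in library 3 and 56 against 45 in library 4. For Il1rn the order turned in library 1, where neutrophils held 64 UMIs against 232. Cells without a class held between 6.79% and 23.6% of the UMIs of each gene.

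Of 46 other genes of the IL-1 family, the inflammasome and their signaling, listed by function, 42 were in the matrix and 21 reached 50 CPM in some class. In the neutrophil comparison 26 had the level tested, 8 at least 2-fold higher, 5 at least 2-fold lower, and a median of 0.21, beside 15.4% higher, 16.6% lower and a median of -0.07 over all genes tested. The ratios of these listed genes were taken over pooled cells only, not by library, and no alternative was run for them. Among the cytokines, Il1f9 (IL-36γ) was at 176 CPM in neutrophils and 0.9003 CPM in monocytes and macrophages, Il1f6 (IL-36α) was highest in injured epithelium at 39.5 CPM, and Il33, an alarmin, in fibroblasts and pericytes at 120 CPM. Among sensors and regulators, Nlrp12 had 70 UMIs in neutrophils and 0 in monocytes and macrophages, Mefv (pyrin) was 1.71 higher on the log2 scale, and Txnip, a binding partner of NLRP3, 2.23 higher. P2rx7, the ATP receptor upstream of NLRP3, was 4.52 lower in neutrophils (0.861 against 19.8 CPM), and Pycard 2.07 lower. Of the adaptors and kinases downstream of the receptor, Myd88 was 0.73, Irak2 1.502 and Irak3 1.29 higher, whereas Map3k7 was at -1.05 (-1.94 to -0.26), Irak4 at -0.50 (-1.01 to -0.02), Irak1 at -0.25 and Tollip near 0. The genes Il1f6, Nlrp12, P2rx7, Irak3, Irak4 and Map3k7 did not reach 50 CPM in any class and were picked after their values were seen. Ninj1, which ruptures the membrane after pore formation, was at 526 CPM in neutrophils and 279 CPM in monocytes and macrophages.

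Further listed genes are given by their highest class, which in the small gates rests on few UMIs. Sigirr, a negative regulator of the receptor family, was highest in the proximal tubule at 71.7 CPM, and Txnip in the distal convoluted tubule at 987 CPM. Nek7, which binds NLRP3, was highest in endothelium at 117 CPM, and the apoptotic caspase gene Casp8 was at 65.9 CPM in classical monocytes and 63.4 CPM in macrophages, with overlapping intervals. The DNA sensor gene Aim2 was at 52.2 CPM in non-classical monocytes (5 UMIs, 17.0 to 122), 46.6 CPM in conventional dendritic cells and 45.5 CPM in T cells, with overlapping intervals. The non-classical monocyte gate, of 36 cells, also had the highest values of Naip2 (62.7 CPM, 6 UMIs) and Naip5 (83.6 CPM, 8 UMIs), near-identical copies of which can share reads, and of Tab2 (167 CPM, 16 UMIs). Mature dendritic cells had the highest value of Traf6 at 55.3 CPM (21 UMIs), and the 36 gated podocytes of Irak1 at 97.0 CPM (18 UMIs), Tollip at 53.9 CPM (10 UMIs) and the cytokine gene Il18, which did not reach 50 CPM, at 37.7 CPM (7 UMIs).

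By likeness of the pattern (Pearson's r over the 16 classes, among 12652 genes), the closest to Il1b were Gm34084 (0.97), Ptgs2 (0.96) and Ccrl2 (0.94). The closest to Il1a were P2ry12 (0.97), Gpr84 (0.95) and Hk3 (0.94), and to Il1rn Slc7a11 (0.98), Trpm2 (0.97) and Jdp2 (0.96). Il1r2 was closest to Ptgs2os2 (0.98), Asprv1 and Cebpe (0.96 each), Il1r1 to Stc1 (0.90), Cav1 and Rcn1 (0.89 each), and Il1rap to Gm37800, Ppp1r3d (0.97 each) and B230208H11Rik (0.96). Nlrp3 was closest to Igsf6, Lst1 and Cd300a (0.98 each), Casp1 to Zbp1 (0.98), Fermt3 (0.96) and Twf2 (0.95), Casp4 to Acap2 (0.94), Atp2b1 (0.91) and Myd88 (0.90), and Gsdmd to Pip4k2a (0.96), Rgs10 and S100a4 (0.93 each). With log2(CPM + 1) in place of log2(CPM + 10), 10 of these 30 genes were named again.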

How the data were processed

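Single-cell 3′ libraries from kidneys of sham and UIR mice were aligned to mm10 and quantified by the authors with Cell Ranger 6.0. The deposited file is 1 merged raw count matrix of UMIs, not normalised, with empty droplets. Cells were called per library in 2 steps: at least 10% of the UMIs at the 99th percentile of the top 3000 barcodes, then a multinomial test against the ambient profile (ranks 45001 to 90000, at least 500 UMIs, 10000 simulations, adjusted p of at most 0.01). Cells with under 200 genes or over 25% mitochondrial counts were left out (513 and 12598 of 70136 called barcodes). A class needed at least 3 of its markers above ambient, a Poisson log-likelihood score of 10 and 2 times the score of the next class. Of the leukocyte-gated cells, 274 scored under 1.5 times that limit. Doublets were kept. The gate rule was written after the files were seen. It names shallow cells less often than deep ones, as cells simulated at known depth showed, and calling and ratios were also tested on simulated data.

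Levels used Python 3.11.15, scipy 1.17.1 and scanpy 1.11.5. Shares have Clopper-Pearson and ratios exact conditional intervals, which cover counting error only. The genes named are the 10 members, the listed pathway genes that reached 50 CPM in a class or are Il18, Pycard, Il33, Il1rl1 or Aim2, and the 3 genes most like each member, except that 1 listed gene is not reported here. Il1f6, Nlrp12, P2rx7, Irak3, Irak4 and Map3k7 fall outside that rule and were named after their values were seen, and Il1rl2 is named as a neighbour of the receptor genes. The members and lists were chosen with earlier results of these data known. Alternatives were calling, gene, mitochondrial and doublet filters, Leiden clusters, gate strictness, thinning, averaging, each library left out, and the minimum level.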

Additional observations from a re-analysis of the deposited data

How the results depend on the processing

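No paired test was run, because all cells count as 1 pooled sample, and the ratios between cell classes were instead also taken within each library. The Il1r2 ratio of neutrophils over monocytes and macrophages and the Il1r1 ratio of endothelium, fibroblasts and pericytes over leukocytes kept their direction under every alternative run. With the first calling step alone, which left 79 neutrophils, the log2 ratio was -0.23 for Il1b, -0.88 for Il1rn, -2.81 for Il1a, -0.80 for Nlrp3, -0.44 for Casp4, -2.69 for Gsdmd, -3.23 for Casp1, 3.87 for Il1r2 and 5.44 for Il1r1, and the log2 odds of Il1rn to Il1b was -0.87. The cause was not tested. Leaving out each library in turn gave 1.28 to 2.11 for Il1b, 1.42 to 3.08 for Il1rn, 5.73 to 6.88 for Il1r2 and -0.046 to 0.96 for Il1rn to Il1b, each lowest without library 2. Between these ends, Il1b was 2.03 without library 3 and 1.56 without library 4, and Il1rn to Il1b was 0.18 without library 1 and 0.72 without library 4. With Leiden clusters no cluster was named for monocytes, so the same cluster of 2386 cells was set against neutrophils in each ratio. Of its cells, 1080 were gated as macrophages, tubule-rich ones included. Leiden clusters gave 1.38 for Il1b, 2.64 for Il1rn, 5.15 for Il1r2 and 1.26 for Il1rn to Il1b, and no value for Il1r1, since no cluster was endothelial or fibroblast. Thinned cells gave 1.59, 3.23, 6.69 and 1.48 in that order, and with tubule-rich leukocytes kept Il1b was 1.39, Il1rn 2.14 and Il1r2 5.98. The mean over cells gave 1.64 for Il1b, 3.05 for Il1rn and 1.36 for Il1rn to Il1b, and the mean over libraries 1.96 for Il1b, 2.71 for Il1rn and 1.91 for Il1r1. With the mitochondrial limit at 10% Il1b was 1.82, with at least 500 genes Il1b was 1.66 and Il1rn 2.34, and without the highest Scrublet scores 1.95 and 2.68. With no minimum level, 3711 genes were at least 2-fold higher and 4553 lower in neutrophils, against 1248 and 1350. With log2(CPM + 1), 10 of the 30 most alike genes were named again. Depth limits Casp1, Casp4 and Gsdmd in the neutrophils of library 1, which rest on 2, 2 and 4 UMIs.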
